A study of Mus musculus with 2 samples.

Results

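The replication-dependent histone genes were followed across the cells of mouse Hepa1-6 hepatoma tumours. The set holds every gene whose symbol begins with Hist1h, Hist2h, Hist3h or Hist4, which gave 67 of the 32285 genes listed in the files. Of these, 6 encode linker histone H1, 18 encode H2A, 18 encode H2B, 12 encode H3 and 13 encode H4. On the mm10 genome (GRCm38), 54 of them lie in the Hist1 cluster on chromosome 13 (21715763 to 23934851), 10 in the Hist2 cluster on chromosome 3 (96219865 to 96270132), 2 on chromosome 11 (58948920 to 58956830) and 1, Hist4h4, on chromosome 6 (136801553 to 136804415).

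The first library came from tumours of mice given CD147-LYTACs, lysosome-targeting chimeras named for the membrane protein CD147, at 40 mg/kg every 3 days for 4 doses. The second came from control tumours, for which the labels name no injected agent. All tumours grew from the Hepa1-6 line, a mouse hepatoma, and were taken on day 12. Sorted CD45- and CD45+ cells were mixed 1 to 3 before loading on the 10x Chromium platform, so the shares of tumour and immune cells are set by the mixing. The labels do not give the strain, the age or the number of tumours behind a library, and they give the route as intraperitoneal or intravenous without saying which was used. There was 1 library per group, so no difference between the libraries has a replicate check and no test was run; each interval below is a 95% interval that covers counting error only.

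Replication-dependent histones are the bulk histones that package newly made DNA, and their genes are switched on together when a cell enters S phase. Their mRNAs are unusual in that most end in a short hairpin, the histone stem-loop, in place of a poly(A) tail; the stem-loop binding protein SLBP holds this hairpin, and the mRNAs are degraded when DNA synthesis stops. A minority of the genes, among them Hist1h1c, Hist1h2bc and Hist2h2be, also make polyadenylated mRNA in cells that have stopped dividing. Droplet libraries capture RNA through its poly(A) tail or an A-rich stretch, so the values below count captured histone molecules rather than all of them. As each molecule is counted once, levels of different genes are set side by side without scaling by length.

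In the GENCODE M21 transcripts (GRCm38), 45 of the 67 genes held a 16-base stem-loop with 6 base pairs and a 4-base loop, here written 5′ to 3′ as DNA with the loop in capitals. The most frequent form was found in 25 genes, Hist1h1c (chr13:23738808-23740367, plus strand) and Hist1h2ap (chr13:21833026-21833507, minus strand) among them; Hist1h4d (chr13:23581598-23582735, plus strand) has the form found in 7 genes, and Hist1h3c (chr13:23744973-23745602, minus strand) the form found in 6 genes.
Form in 25 genes: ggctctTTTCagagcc
Form in 7 genes: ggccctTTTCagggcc
Form in 6 genes: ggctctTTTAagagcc
In each form the letters before and after the loop pair with each other. In 23 genes the annotated transcript ran more than 100 bases past the stem-loop, and in 17 genes the usual signal for polyadenylation (AATAAA, or its common variant ATTAAA) followed it. Hist1h4d extended 770 bases past its stem-loop and Hist1h1c 840 bases, both with such a signal, whereas Hist1h3c extended 74 bases. The 22 other genes had no stem-loop in the annotated transcript, and in 11 of these the model covered the coding part alone. Hist1h2bc (chr13:23684199-23692908, plus strand), an H2B gene with a long spliced transcript, was among the genes without one.

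The RefSeq table for GRCm38 gave a promoter for 61 of the members, and 4 are shown, because their genes carry the contrasts between cell types below: the 250 bases before the RefSeq start of Hist1h1b, Hist1h1c, Hist1h3c and Hist1h4d. For Hist1h3c the GENCODE transcript given above starts further upstream, so part of its printed stretch lies inside that transcript. Capitals mark matches, on either strand, to the CCAAT box, the TATA box written as TATAAA, the octamer of histone promoters (ATGCAAAT) and the box of H1 promoters (AAACACA).
Hist1h1b (chr13:21780626-21780875, minus strand): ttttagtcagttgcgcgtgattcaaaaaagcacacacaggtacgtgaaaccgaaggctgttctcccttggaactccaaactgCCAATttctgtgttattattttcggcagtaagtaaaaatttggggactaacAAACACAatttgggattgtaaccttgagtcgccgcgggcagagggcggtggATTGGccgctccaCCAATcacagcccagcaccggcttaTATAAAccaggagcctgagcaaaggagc
Hist1h1c (chr13:23738557-23738806, plus strand): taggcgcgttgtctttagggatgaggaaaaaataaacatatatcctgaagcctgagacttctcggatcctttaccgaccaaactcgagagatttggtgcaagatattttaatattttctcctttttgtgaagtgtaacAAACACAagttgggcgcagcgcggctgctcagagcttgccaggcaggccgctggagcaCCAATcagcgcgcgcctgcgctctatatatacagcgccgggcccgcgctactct
Hist1h3c (chr13:23745522-23745771, minus strand): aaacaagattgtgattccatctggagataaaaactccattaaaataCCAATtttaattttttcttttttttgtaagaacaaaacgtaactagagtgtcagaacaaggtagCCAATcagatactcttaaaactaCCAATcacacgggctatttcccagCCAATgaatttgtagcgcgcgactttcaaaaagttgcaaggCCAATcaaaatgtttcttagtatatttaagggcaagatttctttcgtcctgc
Hist1h4d (chr13:23581318-23581567, plus strand): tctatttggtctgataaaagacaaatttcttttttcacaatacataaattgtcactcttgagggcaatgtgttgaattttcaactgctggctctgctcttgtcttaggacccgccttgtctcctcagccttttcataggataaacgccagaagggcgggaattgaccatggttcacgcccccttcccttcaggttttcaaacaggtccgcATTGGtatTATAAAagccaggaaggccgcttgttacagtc
Hist1h1b and Hist1h1c, both H1 genes, each hold the H1 box and CCAAT, Hist1h3c holds repeated CCAAT matches, and Hist1h4d holds TATAAA beside a match to CCAAT on the opposite strand. Over 300 bases (250 before and 50 after the start), CCAAT was present in 85.2% of the members' promoters, against 37.4% of all 32851 promoters in the table. TATAAA was present in 57.4%, against 13.6% of all promoters, and the octamer in 21.3%, against 1.74%. The octamer matched 7 of 17 H2A and 6 of 16 H2B promoters and none of H1, H3 or H4. The H1 box was present in 14.8% of the members' promoters, against 7.18% of all promoters. It matched 5 of 6 H1, 2 of 17 H2A and 2 of 16 H2B promoters and none of H3 or H4. CCAAT matched every H1, H2A, H2B and H3 promoter but only 3 of 12 of H4. These matches describe the letters and are not evidence of a bound factor; of the motifs searched, none contains another.

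The matrices held 9219 barcodes and 149812326 UMIs (unique molecular identifiers, each standing for a captured RNA molecule) in the CD147-LYTACs library, and 8150 barcodes and 143495332 UMIs in the control library. Histone genes took 185927 and 170072 of these UMIs, which is 1241 and 1185 CPM (UMIs scaled to a total of 1000000). Only 24 barcodes occurred in both libraries. Cells were sorted into types by UMI thresholds on marker genes that include no histone gene. Markers that set no threshold were checked. The hepatocyte genes Alb and Afp stood at 1177 and 1130.4 CPM, and 204 and 210.2 CPM in the tumour gate, against at most 9.19 and 1.85 CPM in the CD8 gate, although H19 was near 0 in both. The T cell receptor gene Trac stood at 363 and 316 CPM in the CD8 gate, against 2.45 and 2.18 CPM in the tumour gate.

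A few members carried most of the signal. The 6 most abundant made up 64.2% of histone UMIs in the CD147-LYTACs library and 62.1% in the control library, and the 12 most abundant 78.6% and 77.5%. No member was at 0 in a whole library, but counts ran from 1 to 29489 UMIs (median 646) and from 2 to 26520 UMIs (median 598). Several members have near-identical copies: for 9 of them every 60-base stretch of the last 300 transcript bases also lies in another listed gene, and counts among these copies are uncertain. Hist1h2ap, the leading H2A gene, shares all of these bases with Hist1h2ao, yet held 29489 and 26520 UMIs where Hist1h2ao held 94 and 87. The last 300 bases of Hist1h1e, an abundant H1 gene, lie wholly in a transcript of the overlapping gene Hist1h2be.

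Summed over all 67 genes and taken as a share of all UMIs, T cells had the highest histone level and macrophages and monocytes a low one. In histone UMIs per cell the tumour gate led instead. Its mean was 54.0 in the CD147-LYTACs library and 52.9 in the control library, against 26.6 and 18.7 in the CD8 gate. In the CD8 gate (1657 and 2163 cells) the sum was 3026 CPM (2998 to 3054) in the CD147-LYTACs library and 2223 CPM (2202 to 2245) in the control library. In the CD4 gate (207 and 308 cells) it was 2248 and 1762 CPM, and in the NK gate (121 and 100 cells) 1057 and 1751 CPM. The tumour gate (1941 and 1762 cells) stood at 1069.9 CPM (1063 to 1076) and 997 CPM (990.4 to 1003). Dendritic cells (58 and 79 cells) had 813 and 577 CPM, neutrophils (571 and 57 cells) 369.8 and 686 CPM, and monocytes or macrophages (419 and 154 cells) 281 and 340.2 CPM. CD8 and then CD4 cells led in both libraries, while the order of NK and tumour cells, and that of dendritic cells and neutrophils, differed between them. This order rests on summed UMIs: as a mean over cells, control NK cells (1249.7 CPM) stood above control CD4 cells (1181 CPM), and dendritic cells stood above neutrophils in both libraries (736 against 220.2 CPM, and 501 against 392.5 CPM). Some neighbours in the order could not be told apart by counting error: the interval for NK cells reached across the tumour level in the CD147-LYTACs library (975 to 1145 CPM) and across the CD4 level in the control library (1648 to 1859.9 CPM). Krt8, a keratin of the tumour cells that can leak as free RNA, reached 0.898 to 2.26% of its tumour level in the immune gates. Barcodes past the keratin threshold had been left out of these gates. Histone genes stood at 26.2 to 283% of their tumour level there. In the Mki67-undetected cells of these gates, set against all tumour cells, the ranges were 0.603 to 2.43% and 16.03 to 86.6%. The part of leaked RNA in the histone counts was not tested.

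**Figure D1:**
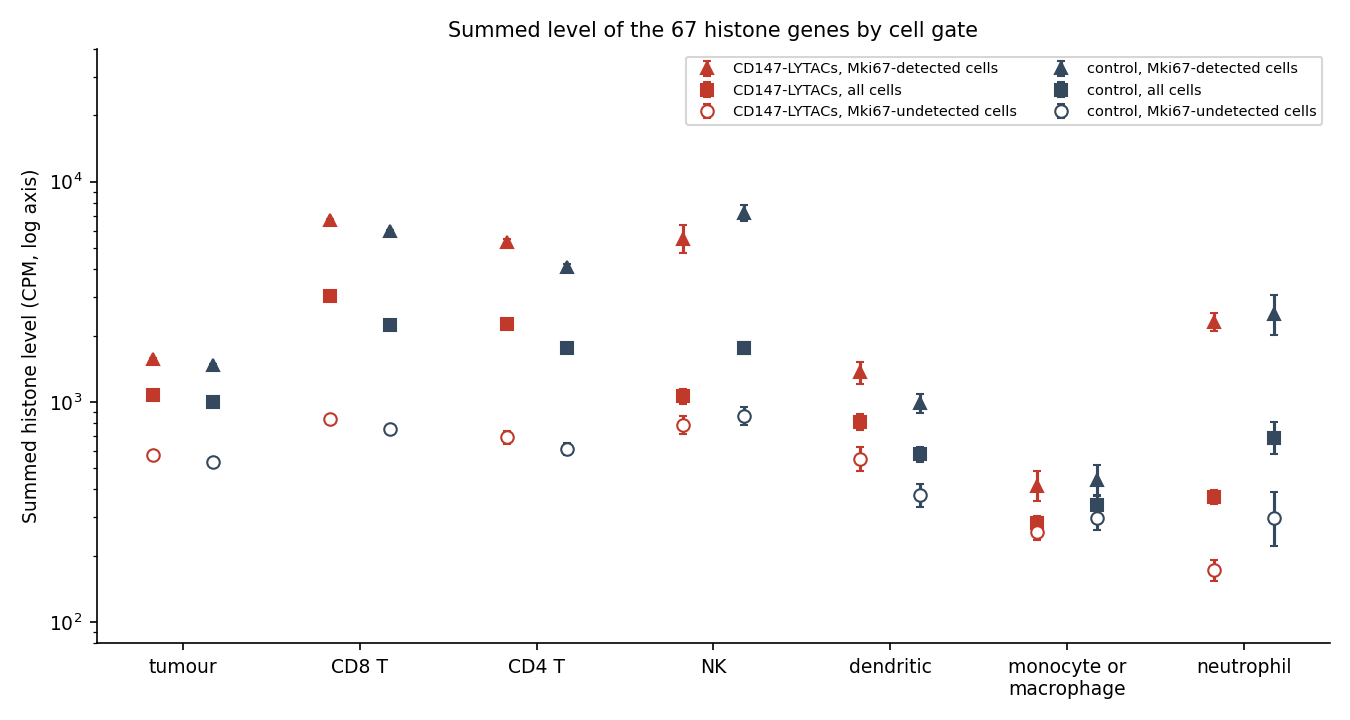
Summed level of the 67 histone genes (CPM, log axis) in 7 cell gates, with the CD147-LYTACs library left of the control library in each gate; triangles are Mki67-detected cells, squares all cells and open circles Mki67-undetected cells, and bars are 95% Poisson intervals. Mki67-detected CD8 T cells lie at 6704 and 5956 CPM, above Mki67-detected tumour cells at 1571 and 1474 CPM.

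Each gate was then split by Mki67, a nuclear protein of dividing cells, with detected meaning at least 1 UMI. In the CD8 gate, Mki67-detected cells had 6704 CPM of histone RNA and undetected cells 836 CPM in the CD147-LYTACs library, an 8.02-fold difference (7.82 to 8.22); in the control library the values were 5956 and 750.2 CPM, 7.94-fold (7.76 to 8.12). In the tumour gate the same split gave 1571 and 572 CPM, 2.75-fold (2.71 to 2.79), in the CD147-LYTACs library, and 1474 and 533 CPM, 2.77-fold (2.73 to 2.81), in the control library. The split therefore separated histone levels by a far larger factor in CD8 T cells than in tumour cells, in both libraries. Mki67-detected cells were also deeper, with a median of 13711 and 12946 UMIs against 6299.5 and 6552.5 UMIs in undetected CD8 cells, and 56255 and 60630 UMIs against 40153 and 42938 UMIs in undetected tumour cells. After each cell was thinned to 2000 UMIs and Mki67 was read on the thinned counts, the folds were 7.83 and 8.33 in CD8 cells and 2.86 and 3.21 in tumour cells.

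CD4 T cells resembled CD8 T cells, with 7.71-fold in the CD147-LYTACs library and 6.67-fold in the control library. NK cells showed 6.98-fold and 8.36-fold, from 4 and 5 Mki67-detected cells. Neutrophils showed 13.5-fold and 8.46-fold, from 23 and 4 such cells. The 23 cells of the CD147-LYTACs library were uneven, with a median of 1 and a mean of 18.3 histone UMIs, and 65.2% of them held any. The fold was 2.46 and 2.62 in dendritic cells, and 1.62 and 1.497 in monocytes or macrophages. At 2000 UMIs per cell the folds were 6.24 and 4.998 in CD4 cells, 5.82 and 5.92 in NK cells, 7.07 and 6.74 in neutrophils, 3.77 and 3.504 in dendritic cells and 1.28 and 2.05 in monocytes or macrophages. At equal depth the dendritic fold, from 5 and 7 Mki67-detected cells, was above that of tumour cells, and the neutrophil value of the CD147-LYTACs library was close to that of the control library.

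Among the members of the CD8 gate with at least 20 UMIs in a library, 57 of 58 were at least 1.5-fold higher in Mki67-detected cells in the CD147-LYTACs library and 56 of 58 in the control library, and none was 1.5-fold lower. Over all genes that passed the same minimum, 12% and 15.5% were higher and 10.2% and 11.5% were lower. The median member log2 ratio was 3.33 and 3.26, and that of all genes was -0.05 in each library. Members that reach the minimum only through their Mki67-detected cells enter this count by construction.

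In the tumour gate 45 of 59 members were at least 1.5-fold higher in Mki67-detected cells and 3 were lower in the CD147-LYTACs library, and 47 of 60 were higher and 3 lower in the control library. The backgrounds were 12.1% and 12.7% of genes higher and 7.81% and 9.34% lower. The median member log2 ratio was 2.15 and 2.06, against 0.05 and 0.07 for all genes. Of the 58 members that passed in both libraries, 44 were higher in both, 10 lay under 1.5-fold in both, and 3 were lower in both: Hist1h2bc, Hist2h3c1 and Hist2h3c2.

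**Figure D2:**
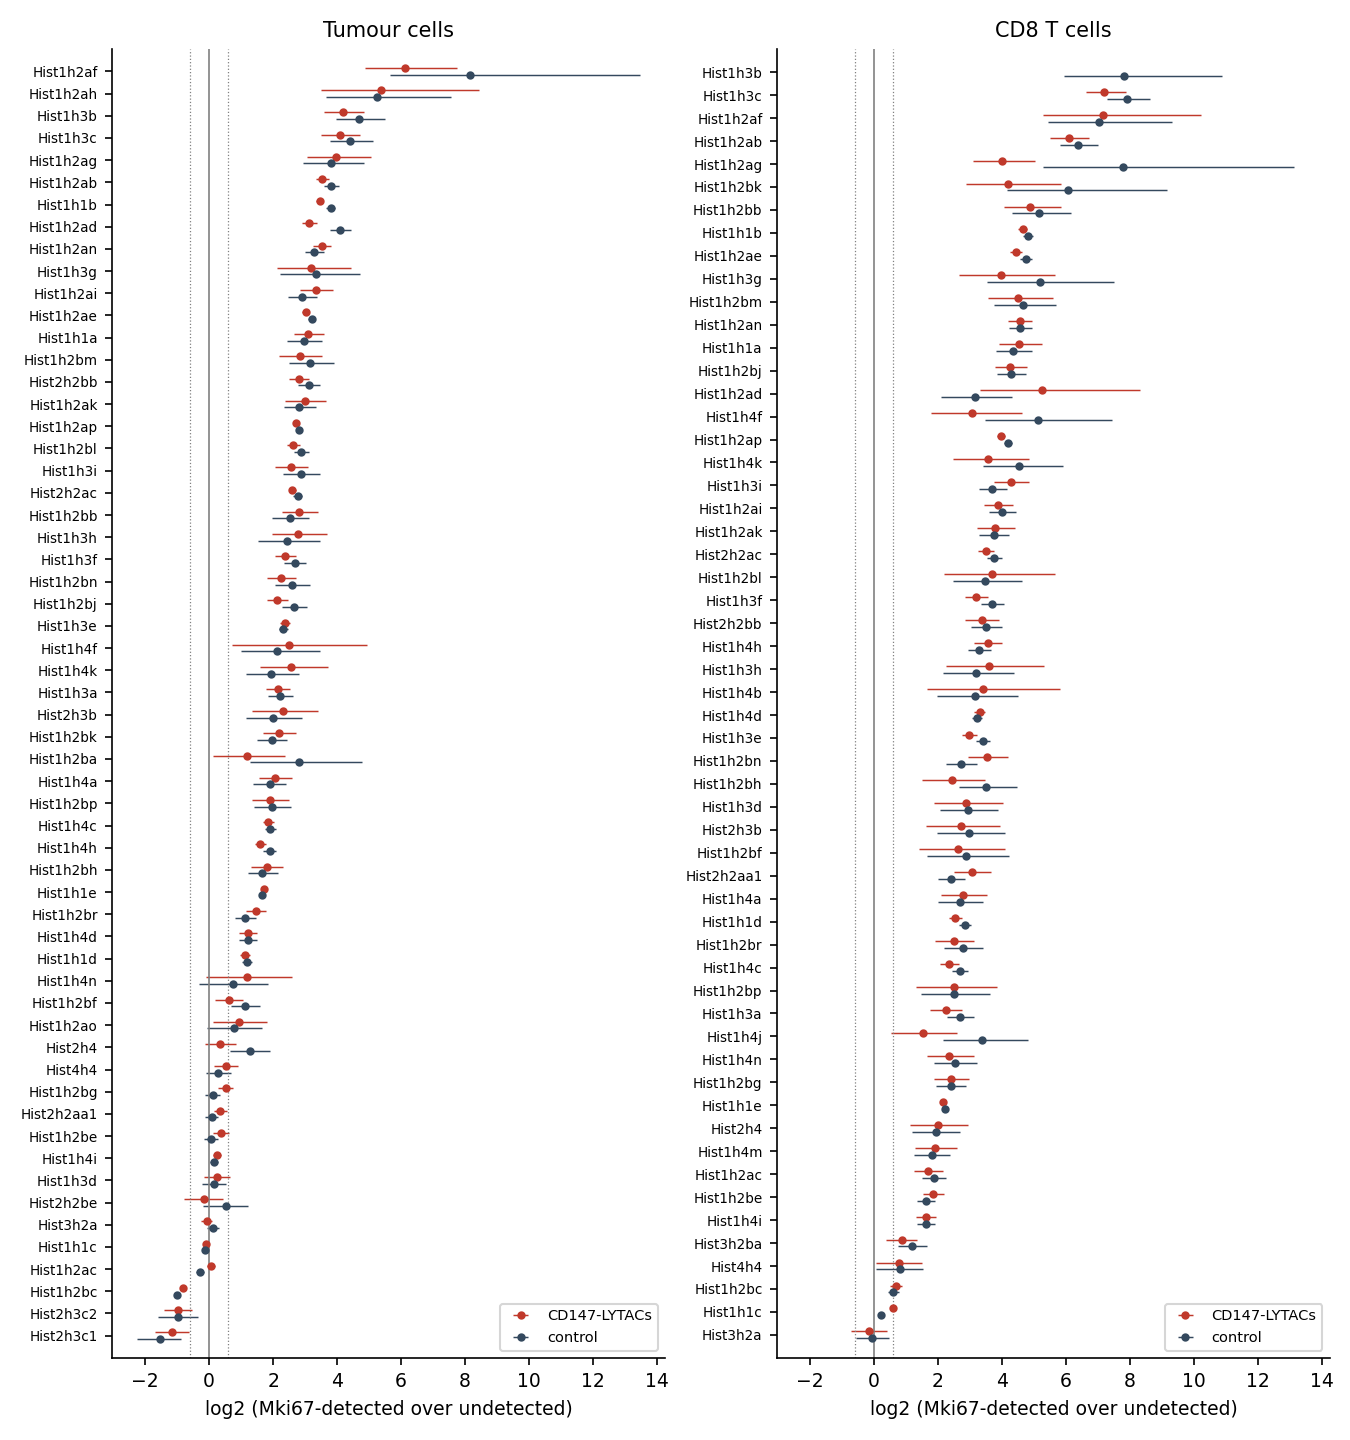
Log2 ratio of the level in Mki67-detected over Mki67-undetected cells for each histone gene with at least 20 UMIs in each library, in tumour cells (left) and CD8 T cells (right), with 95% intervals; red is CD147-LYTACs, dark blue control, and dotted lines mark 1.5-fold. In tumour cells a tail of genes that includes Hist2h3c1, Hist1h2bc and Hist1h1c lies near or below 0, whereas in CD8 T cells nearly all genes lie to the right of the upper line.

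The linker histones, which bind DNA between nucleosomes, split by member. Hist1h1b (chr13:21779883-21780625, minus strand) had 1158 and 46.0 CPM in Mki67-detected and undetected CD8 cells of the CD147-LYTACs library, and 926 and 32.9 CPM in the control library, which is 25.1-fold and 28.2-fold. In tumour cells it had 172 and 15.7 CPM, and 147 and 10.5 CPM, or 10.9-fold and 13.9-fold. Hist1h1c, by contrast, barely followed Mki67 in tumour cells, at 125 and 135 CPM in the CD147-LYTACs library and 105 and 114 CPM in the control library (log2 -0.11 and -0.12). In CD8 cells Hist1h1c stood at 324 and 215 CPM, and at 256 and 220.2 CPM. Hist1h1e, the other abundant H1 gene, and Hist1h1d were between these, with log2 ratios of 1.73 and 1.65, and of 1.11 and 1.18, in tumour cells.

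H2A, which pairs with H2B in the nucleosome, supplied the most abundant member, Hist1h2ap. In CD8 cells Hist1h2ap had 1011 and 64.6 CPM in Mki67-detected and undetected cells of the CD147-LYTACs library and 952 and 52.4 CPM in the control library, or 15.6-fold and 18.2-fold. In tumour cells it had 321 and 48.8 CPM, and 308 and 44.3 CPM, or 6.59-fold and 6.96-fold. Hist1h2ae and Hist2h2ac ran the same way, at 123 and 15.1 CPM, and 117 and 12.7 CPM for Hist1h2ae in tumour cells. Hist1h2ab, at 185 and 2.73 CPM, and 165 and 1.998 CPM, differed by 67.7-fold and 82.4-fold in CD8 cells. Hist1h2ag and Hist1h2ah were rare but similarly uneven, with Hist1h2ag at 3.19 and 0.204 CPM, and 3.27 and 0.232 CPM, and Hist1h2ah at 1.70 and 0.0407 CPM, and 2.41 and 0.0632 CPM in tumour cells. Hist1h2af was almost confined to Mki67-detected cells. In tumour cells it had 345 UMIs in Mki67-detected and 5 in undetected cells of the CD147-LYTACs library, and 277 and 1 in the control library. In CD8 cells it had 170 and 2, and 154 and 3 UMIs. Hist1h2ac stayed level in tumour cells, at 20.4 and 19.7 CPM, and 18.9 and 22.9 CPM. Hist3h2a (chr11:58954685-58956830, plus strand) did not follow Mki67 in either gate: 10.1 and 10.7 CPM, and 9.78 and 9.02 CPM in tumour cells, and 7.72 and 8.53 CPM, and 8.76 and 9.07 CPM in CD8 cells.

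Among H2B genes, Hist1h2bc ran opposite to the family in tumour cells. It had 77.7 CPM in Mki67-detected and 135 CPM in undetected tumour cells of the CD147-LYTACs library, and 65.5 and 132 CPM in the control library (log2 -0.80 and -1.01). In CD8 cells the sign was the other way, at 84.5 and 52.9 CPM, and 85.1 and 56.3 CPM, or 1.60-fold and 1.51-fold. Hist2h2be, an H2B gene with few UMIs, stayed under 1.5-fold in tumour cells, at 0.901 and 1.02 CPM, and 0.933 and 0.653 CPM. Most other H2B genes were low, with Hist1h2bk at 3.71 and 0.814 CPM, and 3.99 and 1.03 CPM in tumour cells.

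H3 and H4 form the tetramer at the core of the nucleosome. Hist1h3c had 371 and 2.52 CPM in Mki67-detected and undetected CD8 cells of the CD147-LYTACs library (2017 and 23 UMIs), and 369 and 1.54 CPM in the control library (1897 and 20 UMIs). In tumour cells it had 8.62 and 0.509 CPM, and 9.43 and 0.443 CPM, or 16.9-fold and 21.3-fold. Hist1h3e, the most abundant H3 gene of tumour cells, had 44.1 and 8.57 CPM, and 47.0 and 9.38 CPM there, though it cannot be told apart from Hist1h3f by its end. Hist1h3b was likewise near 0 in undetected CD8 cells, with 196 UMIs in Mki67-detected and 0 in undetected cells of the CD147-LYTACs library, and 177 and 2 in the control library. Hist2h3c1 and Hist2h3c2 were the H3 genes lower in Mki67-detected tumour cells: Hist2h3c2 had 1.43 and 2.81 CPM, and 0.759 and 1.48 CPM, and Hist2h3c1 0.922 and 2.06 CPM, and 0.564 and 1.64 CPM. For H4, Hist1h4d had 367 and 37.3 CPM, and 298 and 31.7 CPM in CD8 cells, and Hist4h4 only 6.61 and 3.83 CPM, and 5.65 and 3.23 CPM.

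The make-up of captured histone RNA thus differed between Mki67-detected and undetected cells in the tumour and CD8 gates. In Mki67-detected tumour cells H2A made up 44.4% and 45.4% of histone UMIs and H2B 11.2% and 11.1% (CD147-LYTACs and control library). In undetected tumour cells H2A made up 22.2% and 22.3% and H2B 28.7% and 30.5%, with Hist1h2bc alone at 23.7% and 24.8% and Hist1h1c at 23.6% and 21.4%. In undetected CD8 cells H1 made up 54.2% and 54.1% of histone UMIs, against 36.2% and 33.5% in Mki67-detected CD8 cells, and Hist1h1c led with 25.7% and 29.3%.

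Among members with an annotated stem-loop, the size of the Mki67 difference went with the length of the transcript end, a property of the gene models that entered neither the choice of members nor the split. In tumour cells the members with more than 100 bases after the stem-loop had a median log2 ratio of 0.53 (21 genes) in the CD147-LYTACs library and 0.74 (20 genes) in the control library, and 11 and 10 of them lay under 1.5-fold. The members with at most 100 bases after it had medians of 2.61 and 2.66 (19 genes each), with 1 under 1.5-fold in each library. In CD8 cells the medians were 2.27 and 2.54 for the long ends and 3.97 and 4.24 for the short ends. Hist1h1c, Hist3h2a, Hist2h3c1 and Hist1h2ac, an H2A gene with 2010 bases after the stem-loop, belong to the long-ended members, and Hist1h3c to the short-ended ones. Other long-ended members ran the other way. The highest long-ended ratios were 3.02 and 3.20 in tumour cells and 4.44 and 4.74 in CD8 cells, those of the abundant Hist1h2ae. Hist1h4d, also long-ended, stood at 3.30 and 3.23 in CD8 cells. The members with no stem-loop in the annotated transcript had medians of 2.62 (19 genes) and 2.81 (21 genes) in tumour cells and 3.65 and 3.51 in CD8 cells, close to the short-ended ones in tumour cells, and Hist1h1b and Hist1h2bc lie far apart among them. The end of the transcript and its uniqueness went together: 16 of the 23 long-ended members and 0 of the 22 short-ended ones have no 60-base stretch shared with another listed gene, and the members with none shared had medians of 0.30 and 0.33 in tumour cells (18 genes each). The part of shared sequence in the counts was not tested.

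Mki67-detected CD8 T cells held a far larger share of captured histone RNA than Mki67-detected tumour cells. In Mki67-detected cells the ratio of CD8 over tumour was 4.27-fold (4.21 to 4.32) in the CD147-LYTACs library and 4.04-fold (3.99 to 4.09) in the control library. Per cell, the ratio was 1.06 and 0.932: a Mki67-detected CD8 cell held a mean of 102 and 90.2 histone UMIs, a tumour cell 96.1 and 96.8. Over all genes a Mki67-detected CD8 cell held a mean of 15248 and 15151 UMIs, and a tumour cell 61189 and 65680.1. The higher share in CD8 cells thus came with a similar mean number of histone UMIs per cell. The medians over Mki67-detected cells were 73 and 40 histone UMIs per CD8 cell, and 46.5 and 40 per tumour cell. Tumour marker genes summed to 64.6 and 62.0 CPM in the CD8 gate, against 6495 and 5890.5 CPM in the tumour gate. In Mki67-undetected cells the CD8 over tumour ratio was 1.46-fold and 1.41-fold.

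In CPM, 53 of 62 members were at least 1.5-fold higher and 5 lower in Mki67-detected CD8 cells than in Mki67-detected tumour cells of the CD147-LYTACs library, and 56 of 64 were higher and 4 lower in the control library. Cell types differ at many genes, and over all genes 31.6% and 31.4% were higher and 39.1% and 39.4% lower. The members' median log2 ratio was 1.998 and 2.05, and that of all genes -0.12 and -0.14.

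Hist1h4d and Hist1h3c stood apart, each with more than 1000 UMIs in CD8 cells. Hist1h4d had 367 CPM in CD8 and 6.66 CPM in tumour cells of the CD147-LYTACs library, and 298 and 7.59 CPM in the control library, or 55.2-fold and 39.3-fold. Hist1h3c had 371 and 8.62 CPM, and 369 and 9.43 CPM, or 43.0-fold and 39.1-fold. Per cell both still differed, Hist1h4d by 13.7-fold and 9.06-fold and Hist1h3c by 10.7-fold and 9.03-fold. No 60-base stretch at the end of Hist1h4d occurs in another listed gene, so its counts are not split with a copy. Hist1h3c, like every short-ended member, shares end sequence with another listed gene, so its counts are less certain.

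Hist3h2ba, an H2B gene, had 78 and 13 UMIs in CD8 and tumour cells of the CD147-LYTACs library and 77 and 13 in the control library, or 53.8-fold and 53.2-fold in CPM. Hist1h4m, an H4 gene, had 67 and 2 UMIs, and 69 and 2 UMIs, with log2 ratios of 8.23 (6.32 to 11.3) and 8.27 (6.37 to 11.3); its end is shared with Hist1h4n, so its counts are uncertain. Hist1h2bl (H2B) and Hist1h2ad (H2A) ran the other way, at 5.69 CPM in CD8 and 29.1 CPM in tumour cells, and 8.57 and 28.3 CPM, for Hist1h2bl, and at 8.27 and 30.8 CPM, and 6.81 and 29.3 CPM, for Hist1h2ad. Both share most of their end sequence with other members. Hist1h2bc was close to equal, at 84.5 and 77.7 CPM, and 85.1 and 65.5 CPM. These genes outside the naming rule were picked after their values were seen.

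**Figure D3:**
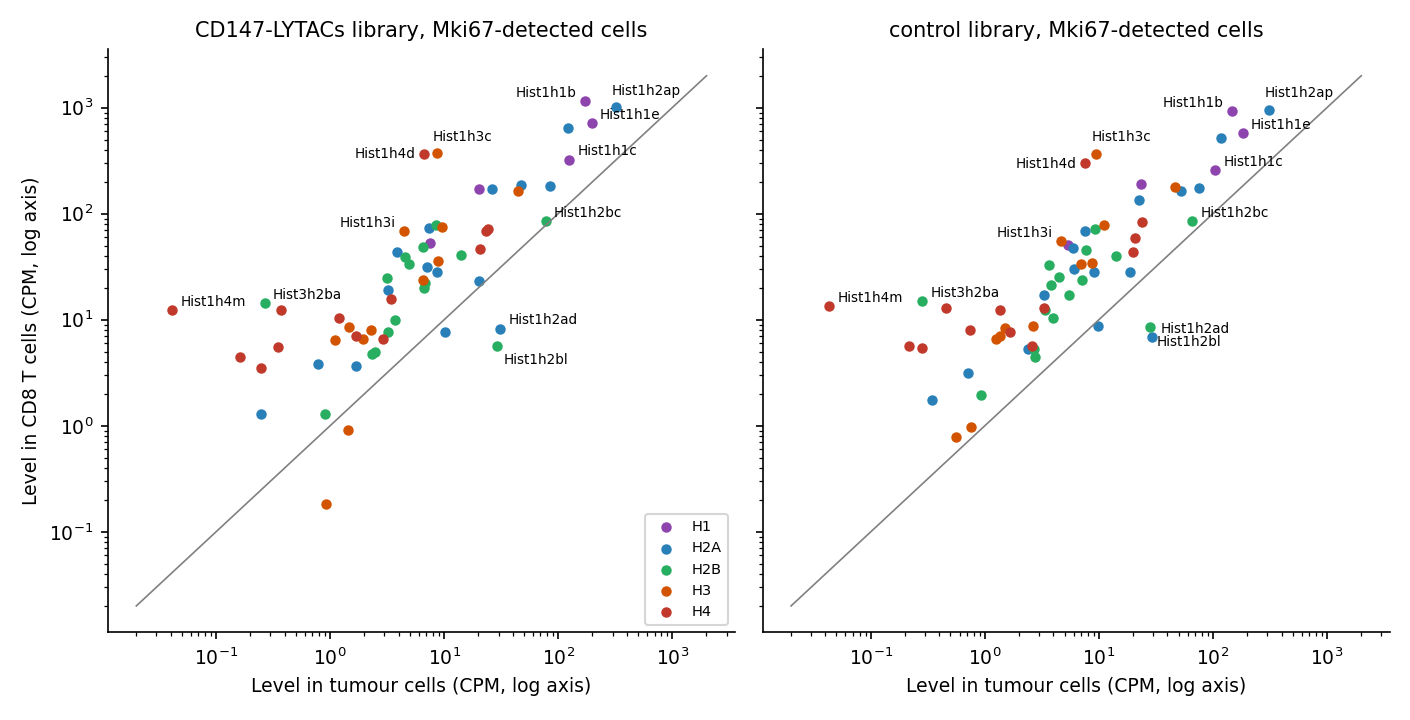
Level of each histone gene in Mki67-detected CD8 T cells (vertical, CPM, log axis) against Mki67-detected tumour cells (horizontal, CPM, log axis) in the CD147-LYTACs library (left) and the control library (right), coloured by histone class, with the line of equal level. Hist1h4d and Hist1h3c lie far above the line in both libraries, at 55.2-fold and 39.3-fold and at 43.0-fold and 39.1-fold, and Hist1h2bl and Hist1h2ad lie below it.

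Mki67-detected cells were also placed by the balance of their UMIs from 25 S phase genes and 20 mitosis genes. In tumour cells the histone level was highest where mitosis genes led, at 2207 CPM (147 cells), against 1678 CPM (248 cells) in between and 1197 CPM (402 cells) where S phase genes led in the CD147-LYTACs library, and at 2009, 1809 and 1072 CPM (126, 192 and 382 cells) in the control library. In CD8 cells the level peaked in between, at 3097, 8441 and 5549 CPM (26, 154 and 170 cells) in the same order in the CD147-LYTACs library, and at 2985, 7319 and 5322 CPM (27, 127 and 175 cells) in the control library. Cells where mitosis genes led were thus the highest class among tumour cells and the lowest among CD8 cells, in both libraries. Hist1h4d in CD8 cells ran 109.9, 505 and 269 CPM in the CD147-LYTACs library and 99.4, 361 and 277 CPM in the control library. Hist1h2bc did not peak in between but declined in CD8 cells, at 176, 89.8 and 64.7 CPM, and 146, 104 and 63.3 CPM. Among the tumour cells 188 and 161, and among the CD8 cells 87 and 82, lay near a boundary between classes, so the classes are ranges rather than cell-cycle stages.

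**Figure D4:**
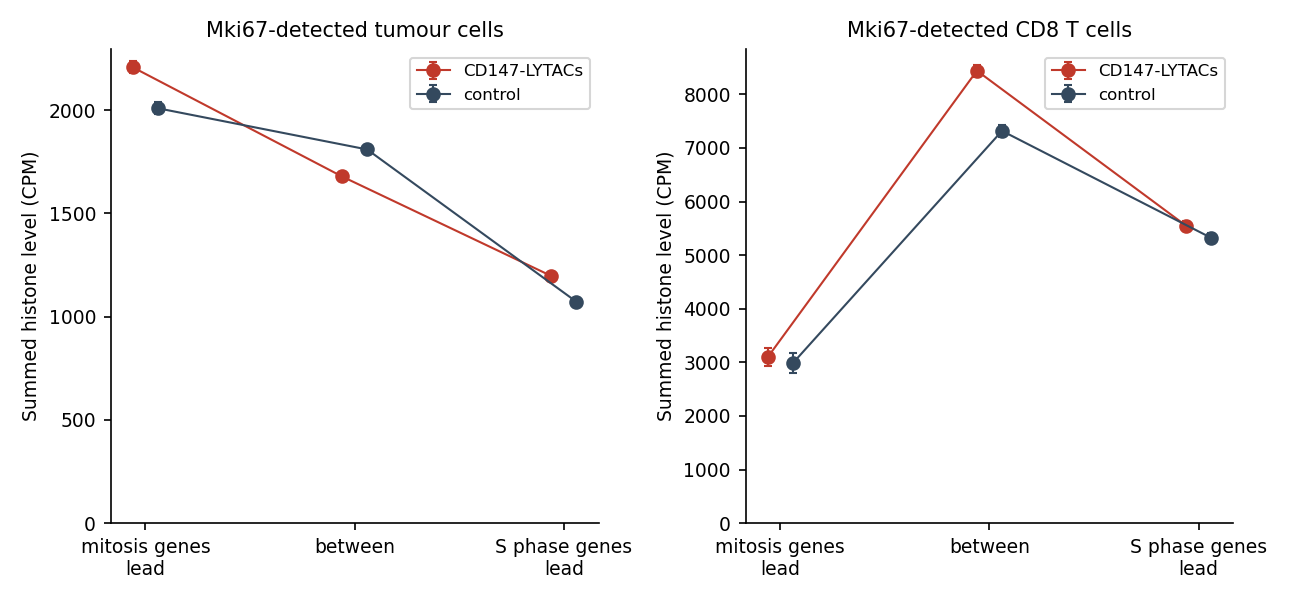
Summed histone level (CPM) of Mki67-detected tumour cells (left) and CD8 T cells (right) in 3 classes, from cells in which mitosis genes take most of the S phase plus mitosis UMIs to cells in which S phase genes do; red is CD147-LYTACs, dark blue control, with 95% Poisson intervals. Tumour cells fall from 2207 and 2009 CPM on the left, and CD8 T cells peak in the middle at 8441 and 7319 CPM.

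Between the libraries, the tumour cells' histone level was close to equal and that of CD8 T cells was higher after CD147-LYTACs. Tumour cells had 1069.9 CPM after CD147-LYTACs and 997 CPM in controls, and the log2 ratio was 0.10 (0.09 to 0.11). CD8 cells had 3026 and 2223 CPM, a log2 ratio of 0.44 (0.43 to 0.46). Mki67 was detected in 21.5% (19.6 to 23.6) of CD8 cells in the CD147-LYTACs library and in 15.7% (14.2 to 17.3) in the control library (exact binomial intervals), and in 12.9% and 8.48% after thinning. Within Mki67-detected CD8 cells the log2 ratio was 0.17 (0.15 to 0.19) and within undetected ones 0.16 (0.11 to 0.20), both smaller than over all CD8 cells. In tumour cells Mki67 was detected in 41.1% and 39.8%, and in 14.2% and 12.8% after thinning. Neutrophils, which do not divide once mature, gave 4.03% and 7.02%, and 2.52% and 6.67% after thinning, at a median of 2887 and 2995 UMIs, against 6887 and 6837 UMIs in CD8 cells.

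All 5 classes stood higher in CD8 cells of the CD147-LYTACs library. The log2 ratios were 0.48 for H1, 0.50 for H2A, 0.24 for H2B, 0.34 for H3 and 0.42 for H4. Within Mki67-detected CD8 cells, H1 was at 0.28 (0.25 to 0.32), and H3 at -0.02 (-0.09 to 0.04) and H2B at 0.06 (-0.02 to 0.15), the last 2 with intervals that include no difference. In tumour cells H1 had the highest ratio, 0.18 (0.16 to 0.21), and H3 the lowest, -0.04 (-0.09 to 0.02).

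Of 61 members with at least 20 UMIs in CD8 cells, 6 were at least 1.5-fold higher and 1 lower in the CD147-LYTACs library, where 6.01% of 13039 genes were higher and 3.81% lower. The median member log2 ratio was 0.32, and that of all genes -0.02. Hist1h1b had 461 CPM in the CD147-LYTACs library and 286 CPM in the control library (log2 0.69, 0.64 to 0.74), Hist1h2ae 259 and 160.3 CPM (0.69), and Hist1h2an, an H2A gene, 68.7 and 42.1 CPM (0.71). Hist1h2ag (H2A) had 7.88 and 4.90 CPM and Hist1h2bb (H2B) 15.3 and 10.03 CPM. The sixth member, Hist1h2ao, rested on 23 and 18 UMIs, and the member that was lower, Hist2h2ab (H2A), on 10 and 19 UMIs; the intervals of both include no difference.

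Within Mki67-detected CD8 cells none of 58 members was 1.5-fold higher and 3 were lower, with backgrounds of 4.91% and 4.83%; the 3 were Hist1h2bh (42 and 63 UMIs), Hist1h2bl (31 and 44 UMIs) and Hist1h4b (19 and 28 UMIs), all at low counts. There Hist1h1b had a log2 ratio of 0.32, Hist1h2ae 0.32 and Hist1h2an 0.35. Within undetected CD8 cells 3 of 45 members were higher and 1 lower, with backgrounds of 6.28% and 3.85%. The 3 were Hist1h2ae (271 and 252 UMIs), Hist1h3c (23 and 20 UMIs) and Hist1h4j (14 and 7 UMIs), and the lower was Hist2h2aa1 (31 and 69 UMIs).

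In tumour cells 1 of 64 members was 1.5-fold higher and 3 were lower, where 4.38% of 17364 genes were higher and 6.95% lower. The median member log2 ratio was -0.00, against -0.03 for all genes. Hist2h3c2 had 2.12 CPM in the CD147-LYTACs library and 1.12 CPM in the control library (log2 0.92, 0.57 to 1.27). Hist1h2ak, an H2A gene, had 2.17 and 3.35 CPM (-0.62, -0.88 to -0.37), and Hist1h4f, an H4 gene, 20 and 42 UMIs (-1.14). Hist1h2aa had 4 UMIs in 2 cells and 38 UMIs in 3 cells, and 36 of the 38 came from 1 control cell.

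**Figure D5:**
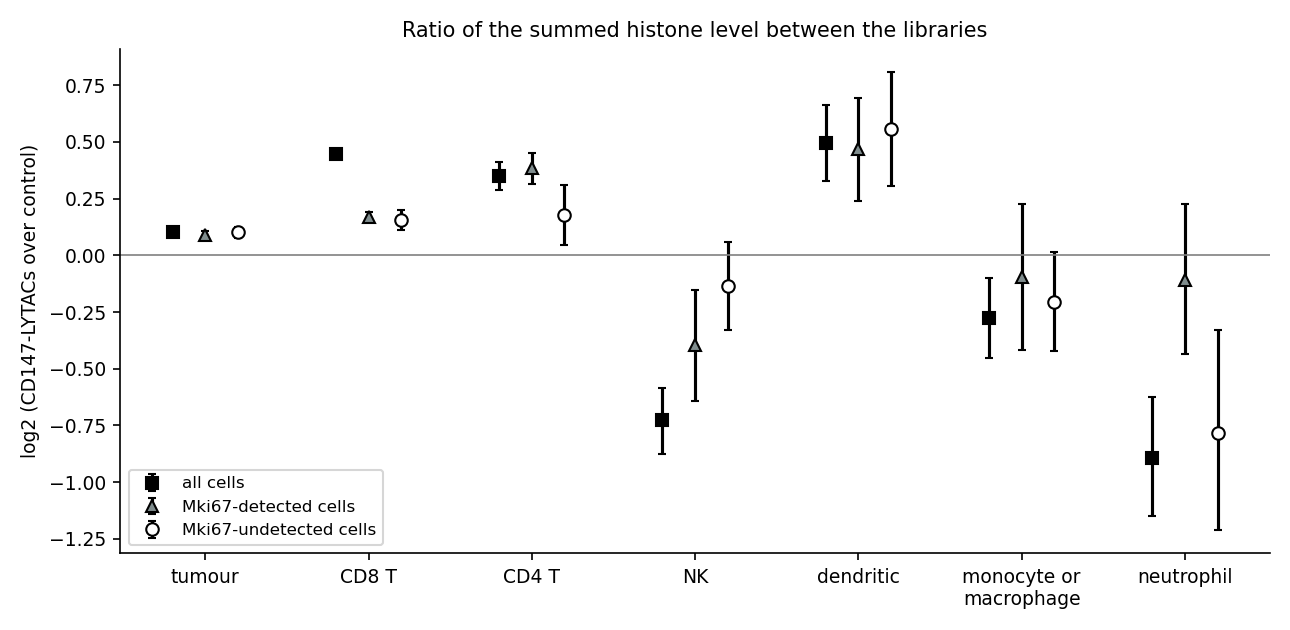
Log2 ratio of the summed histone level, CD147-LYTACs over control, in each cell gate for all cells (squares), Mki67-detected cells (triangles) and Mki67-undetected cells (open circles), with 95% intervals for counting error. CD8 T cells lie at 0.44 over all cells and at 0.17 and 0.16 within the split, and tumour cells stay near 0.10. NK cells, monocytes or macrophages, and neutrophils lie below 0 over all cells.

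The other gates did not share a direction. Over all cells the log2 ratio was 0.35 (0.29 to 0.41) in CD4 T cells and 0.49 (0.33 to 0.66) in dendritic cells. The dendritic value was 0.13 without its 3 most abundant members, among them Hist1h1c, which had 159 UMIs in the CD147-LYTACs library and 119 in the control library. The ratio over all cells was -0.73 (-0.87 to -0.58) in NK cells, -0.28 (-0.45 to -0.10) in monocytes or macrophages and -0.89 (-1.15 to -0.63) in neutrophils. In NK cells the ratio was -0.13 (-0.33 to 0.06) among Mki67-undetected cells, and the Mki67-detected cells numbered 4 and 5; the mean over cells gave -0.35. In neutrophils it was -0.11 (-0.44 to 0.23) among Mki67-detected cells (23 and 4 cells). Among Mki67-undetected neutrophils (548 and 53 cells) it was -0.78 (-1.21 to -0.33). In monocytes or macrophages the mean of single-cell CPM gave 0.14 in place of -0.28.

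Members known from male germ cells were nearly silent. Hist1h1t (H1) had 12 and 14 UMIs in tumour cells and 0 and 1 in CD8 cells. Hist1h2ba (H2B) had 36 UMIs in 33 tumour cells and 31 UMIs in 26, and 0 in CD8 cells of both libraries. Hist1h2aa was at 0 in CD8 cells as well. Hist3h2ba was listed with them here, but whether it belongs to germ cells was not checked. It differed from them, with 21 and 17 UMIs in tumour cells but 150 and 162 UMIs in CD8 cells, spread over 128 and 134 cells. A count of 0 allows up to 3 UMIs, as a 1-sided 95% limit for counting error.

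Genes that act on histone mRNA or histone proteins differed less with Mki67 than the histone genes did, with list medians of 0.32 to 0.63 (log2) for mRNA processing genes and chaperones. Of the genes that process or switch on histone mRNA, 11 of 22 were at least 1.5-fold higher in Mki67-detected tumour cells of the CD147-LYTACs library and 10 in the control library, and 6 and 7 in CD8 cells. Over all genes tested in the same way, 12.1% and 12.7% were higher in tumour cells and 12% and 15.5% in CD8 cells. Slbp had 41.9 and 26.0 CPM, and 41.3 and 22.7 CPM in tumour cells (1.61-fold and 1.82-fold), and 172 and 112 CPM, and 184 and 124 CPM in CD8 cells. Histone chaperones, which carry histones to DNA, were higher in 8 and 8 of 22 cases in tumour cells and 10 and 11 of 22 in CD8 cells; Asf1b, a chaperone of H3 and H4, was 8.41-fold and 8.61-fold higher in tumour cells. Of the replication-independent variants, 5 and 6 of 10 were higher in tumour cells and 5 and 5 in CD8 cells. H2afz, the gene of H2A.Z, had 928 and 365 CPM, and 812 and 319.9 CPM in tumour cells, whereas H3f3b, which encodes H3.3, differed by only 1.31-fold and 1.29-fold. No gene of these 3 lists was 1.5-fold lower in Mki67-detected cells of either gate. All 25 S phase genes and all 20 mitosis genes were at least 1.5-fold higher in Mki67-detected tumour cells of both libraries, with medians of 2.32 and 2.37, and 4.87 and 4.89. Between the libraries none of them passed 1.5-fold in tumour cells, and 1 processing gene and 1 variant did in CD8 cells. Over all genes 4.38% were higher and 6.95% lower in tumour cells, and 6.01% and 3.81% in CD8 cells. The variant was H1fx, an H1 gene, at 5.07 CPM after CD147-LYTACs and 2.48 CPM in the control library. Cenpa was on both the variant and the mitosis list, and Chaf1b on both the chaperone and the S phase list.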

How the data were processed

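The authors deposited raw UMI counts per gene and barcode for 2 libraries (1 per group), aligned to mm10 with Cell Ranger 3.0.2 per the submitters' processing notes, while the file headers name version 7.1.0. The members, gene lists and alternatives were chosen with earlier results of these data known, and gate thresholds were set after marker counts were seen. Barcodes needed at least 500 UMIs, 300 genes and at most 15% mitochondrial UMIs, which 8176 (CD147-LYTACs) and 7091 (control) met. Those with the highest Scrublet scores (scanpy 1.11.5), 0.8% per 1000 barcodes, were removed (535 and 402; Scrublet's own threshold marked 134 and 1). Of the 7641 and 6689 kept, 379 and 155 met several gates and were left out, 1581 and 1024 met none, 591 and 809 were other T cells and 116 and 78 other lineages, which left 4974 and 4623. A gate needed, for example, 20 UMIs and 500 CPM of Krt8 and Krt18, or 2 UMIs and 100 CPM of Cd3d, Cd3e and Cd3g with 2 UMIs of Cd8a and Cd8b1 and none of Cd4.

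UMIs were summed per gate and divided by all UMIs of the gate (CPM), with exact Poisson intervals for levels and exact conditional binomial intervals for ratios, at 95%. Ratios needed 20 UMIs over both sides, and called means past 1.5-fold. Cells with at least 3 UMIs of S phase and mitosis genes were put in 3 classes by the share of each. The text names the 12 members with the highest mean CPM, those past 1.5-fold between libraries with an interval excluding no difference, the 5 highest and 5 lowest Mki67 ratios among members with 100 UMIs in tumour and CD8 cells, testis-type members and known polyadenylated ones; others were picked after their values were seen. The ratio code was tested on simulated counts. The list of alternatives is given with the results that moved.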

Additional observations from a re-analysis of the deposited data

Results flagged for a closer look

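The summed histone level differed between the libraries in opposite directions across cell types. Its log2 ratio, CD147-LYTACs over control, was above 0 in tumour cells (0.10), CD8 T cells (0.44), CD4 T cells (0.35) and dendritic cells (0.49), and below 0 in NK cells (-0.73), monocytes or macrophages (-0.28) and neutrophils (-0.89). With 1 library per group the difference between cell types was not tested. In dendritic cells it was 0.13 without the 3 most abundant members, and in NK cells -0.35 with the mean over cells. In NK cells Mki67 was detected in 4 and 5 cells and in neutrophils in 23 and 4 cells, and the neutrophil gate held 571 and 57 cells.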

How the results depend on the processing

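Values are log2 ratios unless given as CPM, with the CD147-LYTACs library first where a pair is given. No paired analysis was possible because each group has 1 library, and for the same reason no replicate could be left out. Of 42 levels, 12 CD8 over tumour ratios, 84 Mki67 ratios, 56 library ratios and 20 member counts recomputed, 17, 9, 45, 19 and 8 moved past their counting interval or by over 1.5 times, and 1 CD8 over tumour ratio and 1 library ratio reversed. Of 44 values of single members, 9 moved and none reversed. All 9 were CD8 library ratios taken within the Mki67 split: in detected and in undetected cells, Hist1h1b 0.32 and 0.49, Hist1h2an 0.35 and 0.37, Hist1h2ag 0.16 and 3.97 (1.19 to 9.396, from 11 and 1 UMIs), Hist1h2ae 0.32 and 0.61, and Hist1h2bb 0.23 in detected cells. The causes were not tested. The NK, dendritic and neutrophil gates hold few cells, at the least 100, 58 and 57 in a library.

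The library ratio reversed to 0.14 in monocytes or macrophages with the mean over cells, and CD8 over tumour in Mki67-detected cells became 0.089 and, reversed, -0.10 per cell. It was 2.15 and 2.13 with Mki67 at 2 UMIs or more, 2.05 and 1.70 with Top2a in place of Mki67, 2.21 and 2.13 with median-ratio scaling, and 2.03 and 1.92 without removal of doublets by score. All genes' median in that comparison was -0.11 and -0.12.

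The mean over cells gave levels of 979.8 and 927 CPM in tumour, 2030.05 and 1494 CPM in CD8, 1539.6 and 1181 CPM in CD4, 736 and 501 CPM in dendritic and 220.2 and 392.5 CPM in neutrophil cells, and, in the control library, 1249.7 CPM in NK and 261 CPM in monocytes or macrophages. Without removal by score, levels were 2981 and 2152 CPM in CD8, 2419.7 CPM in CD4 (CD147-LYTACs) and 1007 CPM in tumour cells (control). With a mitochondrial limit of 10%, the control NK level was 1582 CPM.

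The library ratio in tumour cells was 0.081 with the mean over cells, 0.13 with median-ratio scaling, 0.079 without removal by score, 0.12 without members wholly shared in sequence and 0.080 without the 3 most abundant members. In CD8 cells it was 0.48 with median-ratio scaling, 0.47 without removal by score, 0.37 without the 3 most abundant members, 0.17 in Mki67-detected and 0.16 in undetected cells. In CD4 cells it was 0.48 without removal by score and 0.18 in Mki67-undetected cells. In NK cells it was -0.35 with the mean over cells, -0.58 at a mitochondrial limit of 10%, -0.39 in Mki67-detected and -0.13 in undetected cells. In Mki67-detected cells it was -0.094 in monocytes or macrophages and -0.11 in neutrophils, and in dendritic cells 0.13 without the 3 most abundant members.

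The Mki67 ratio with at least 2 UMIs of Mki67 was 1.67 and 1.68 in tumour, 3.27 and 3.32 in CD8, 3.37 and 3.15 in CD4, 1.30 and 0.90 in monocytes or macrophages, 4.13 in neutrophils (CD147-LYTACs), and 3.36 in NK and 1.92 in dendritic cells (control). With Top2a it was 1.02 and 1.05 in tumour, 2.61 and 2.28 in CD8, 2.66 and 2.16 in CD4, 1.4999 and 1.95 in NK and, in the CD147-LYTACs library, 1.81 in dendritic cells, 0.22 in monocytes or macrophages and 4.04 in neutrophils. With thinned counts it was 1.52 and 1.68 in tumour, 2.64 and 2.32 in CD4, 2.54 and 2.57 in NK, 1.91 and 1.81 in dendritic cells, 0.36 and 1.04 in monocytes or macrophages, 2.82 in neutrophils (CD147-LYTACs) and 3.06 in CD8 (control). With median-ratio scaling it was 1.40 and 1.38 in tumour, 3.06 and 3.05 in CD8, 4.001 and 3.93 in neutrophils, 3.07 in CD4 (CD147-LYTACs) and 3.35 in NK (control). Without removal by score it was 2.94 and 2.90 in CD8, and 2.82 in NK (control).

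Counts of members past 1.5-fold between libraries were, with no minimum of UMIs, 2 higher and 5 lower in tumour and 2 lower in CD8 cells. At 100 UMIs 1 was lower in tumour and 0 in CD8 cells. Median-ratio scaling gave 10 higher and 0 lower in CD8 cells, and no removal by score 0 lower. No share over all genes is given for these settings, so the counts cannot be set against a background.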
